A study of Homo sapiens with 6 samples.

Results

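The genes described here encode the human centromere, the kinetochore and the spindle assembly checkpoint. They were fixed as 47 gene names, and every name was found once among the 58735 rows of the deposited gene count table. RNA was sequenced from SKOV3ip1, an ovarian adenocarcinoma cell line derived from SKOV3 and labelled wild type. Cells were transfected with 2 µg of BARD1 siRNA or with 2 µg of control siRNA and harvested 48 h later, with 3 libraries per condition labelled as biological replicates. Both conditions were therefore exposed to the same lipid transfection reagent, and they come from a single cell line. The labels name a single BARD1 siRNA treatment, so loss of BARD1 and other effects of that siRNA cannot be told apart. The sources used here do not say whether the replicates were separate transfections on separate days, and p-values reflect how far these cultures differed from each other, which may be technical. The source field names the material as tumors, whereas the protocols describe cells grown in 6-well plates.

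The centromere is the chromosomal site marked by nucleosomes that carry the histone H3 variant CENP-A. A constitutive network of inner kinetochore proteins sits on this chromatin and recruits, in mitosis, the KMN network that binds spindle microtubules. Kinetochores without proper attachment generate the spindle checkpoint signal, which holds back the anaphase-promoting complex, and the chromosomal passenger complex corrects wrong attachments. Many of these genes are transcribed mainly in late S phase, G2 and mitosis, so that their mRNA is known to be more abundant in proliferating than in resting cell populations.

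BARD1 itself, the RING-domain partner of BRCA1, had 5.90, 6.51 and 9.69 CPM (counts scaled to library size with TMM factors) in the BARD1 siRNA libraries, against 45.8, 37.8 and 49.1 CPM in the control siRNA libraries. Every BARD1 siRNA library lay below every control siRNA library, so the targeted gene followed the labels. Libraries held 16621108 to 17743404 gene counts, and mitochondrial transcripts took 4.93% to 5.15% of the counts in BARD1 siRNA and 5.23% to 5.73% in control siRNA libraries. Of 13 epithelial and ovarian markers, 11 could be tested, of which 4 fell and 2 rose. Among all tested genes, the shares were 20.3% and 22.0%. The keratin KRT7 averaged 134 CPM in BARD1 siRNA and 264 CPM in control siRNA cells (log2 fold change −0.98), KRT19 averaged 173 CPM in BARD1 siRNA and 263 CPM in control siRNA cells (−0.60), and EPCAM and ERBB2 fell by 0.24 and 0.14 on the log2 scale. The calls of EPCAM and ERBB2 ended without single libraries (adjusted p of 0.0805 for EPCAM and 0.0661 for ERBB2 without BARD1 siRNA replicate 2, 0.0896 for EPCAM without BARD1 siRNA replicate 3 and 0.0539 for ERBB2 without control siRNA replicate 1). KRT18 and PAX8 rose by 0.40 and 0.75, KRT8 averaged 1274 CPM with BARD1 siRNA and 1230 CPM with control siRNA, and CDH1, which encodes E-cadherin, was near 0 at 0.338 CPM with BARD1 siRNA and 0.725 CPM with control siRNA. MUC16 and WT1 were too low to test. The part of the mitochondrial and marker differences in the results for the kinetochore genes was not tested. Of 14 markers of fibroblasts, endothelium and leukocytes, COL3A1 fell to 10.8 CPM in BARD1 siRNA cells, against 19.2 CPM in control siRNA cells (log2 fold change −0.83), 10 were too low to test, PTPRC, CD68 and CD3E had 0 counts in all 6 libraries, and the 14 summed to 17.1 to 22.7 CPM with BARD1 siRNA and 26.1 to 27.2 CPM with control siRNA.

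Most centromere and kinetochore genes had lower mRNA with BARD1 siRNA than with control siRNA. Of the 47 genes, 41 fell, 2 rose and 4 did not pass the edgeR quasi-likelihood test at an adjusted p of 0.05. All 47 passed the filter on low counts. Among all 15271 tested genes, 20.3% fell and 22.0% rose. The share that fell was thus 87.2% of the kinetochore genes. Their median log2 fold change was −0.52, with quartiles of −0.72 and −0.37, while the median of all tested genes was −0.01, with quartiles of −0.27 and 0.28. In normalised CPM, the 47 genes summed to 2618, 2642 and 2728 in BARD1 siRNA libraries and to 3989, 3841 and 4075 in control siRNA libraries. All BARD1 siRNA libraries lay below all control siRNA libraries for 42 of the 47 genes, and for 24.6% of all tested genes. They lay above all control siRNA libraries for 3 of the 47, against 25.8% of tested genes. The decreases were moderate in size. A fall of at least 1.5-fold was seen for 20 of the 47, against 6.04% of tested genes, and a fall of at least 2-fold for 4, against 1.94%. In RNA from whole cultures, a smaller share of cells in late cell cycle phases and less of these mRNAs per cell cannot be told apart.

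**Figure D1:**
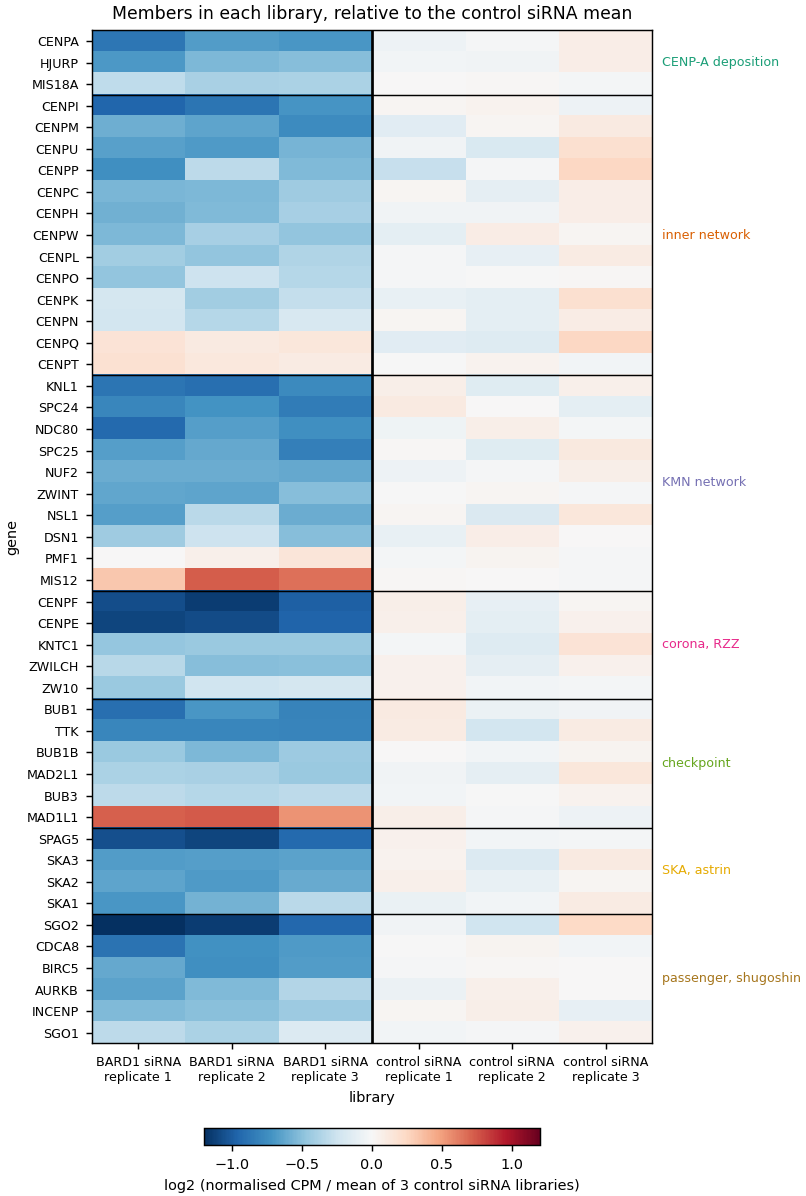
Each row is 1 of the 47 genes, grouped by role, and each column 1 library; the colour gives the log2 ratio of normalised CPM to the mean of the 3 control siRNA libraries. The BARD1 siRNA columns are blue (lower) for 41 called genes, and red (higher) for MIS12 and MAD1L1.

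**Figure D2:**
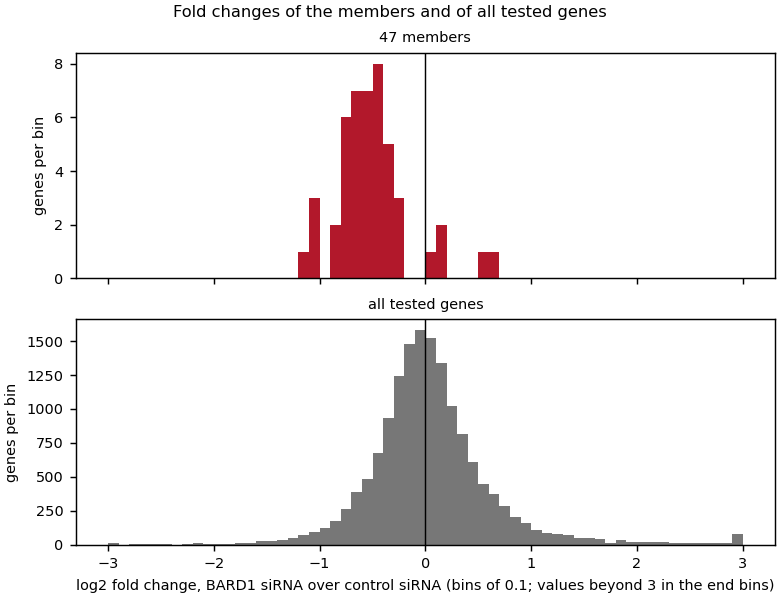
The upper panel counts the 47 genes and the lower panel all 15271 tested genes in bins of log2 fold change, BARD1 siRNA over control siRNA. The middle 50% of the 47 genes lie between −0.72 and −0.37, whereas all tested genes centre near −0.01.

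The promoters of these genes, which spread over 21 chromosomes, were searched for short words that the choice of genes did not use. RefSeq windows from 250 bases before to 50 after a transcription start (GRCh38.p14) were found for 38 of the genes, in 44 windows. The cell cycle homology region, an element through which the DREAM and MuvB complexes act on late cell cycle genes, was searched as TTTGAA or TTCGAA on both strands. It was present in 22 of the 44 windows, or 50%, and in 16.4% of all 35116 windows. The CCAAT box, bound by NF-Y and searched as CCAAT on both strands, was in 65.9% of the windows of these genes and 34.6% of all windows. An E2F word, TTTCCCGC or TTTGGCGC on both strands, was in 3 of the 44, or 6.82%, and in 2.27% of all windows. The 3 windows belong to 2 of the 38 genes, CENPA, which fell, and MIS12, which rose and holds an E2F word in both its windows. The median log2 fold change was −0.58 over the 21 genes with a cell cycle homology word and −0.50 over the 17 without. Of these, 20 of the 21 and 12 of the 17 fell, against 20.3% of all tested genes. For CCAAT words, the median was −0.50 over the 25 genes with and −0.52 over the 13 without. Here 21 of the 25 and 11 of the 13 fell. Given next are the 150 bases before to 50 bases after the start of 5 genes that fell and of MIS12 and MAD1L1, which rose. The 5 hold a cell cycle homology word near the start, and MIS12 and MAD1L1 hold none in their windows. These genes were picked for display, and no gene that fell without the word is shown. Capitals mark the cell cycle homology words, CCAAT words and E2F words on either strand, so that a CCAAT on the opposite strand reads ATTGG and TTTGAA reads TTCAAA.
CENPA, chr2:26785906-26786105, plus strand: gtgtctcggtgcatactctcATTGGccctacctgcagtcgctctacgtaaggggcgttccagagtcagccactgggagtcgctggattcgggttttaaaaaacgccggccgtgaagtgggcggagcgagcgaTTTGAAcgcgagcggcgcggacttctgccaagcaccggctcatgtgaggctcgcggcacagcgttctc
BUB1, chr2:110678014-110678213, minus strand: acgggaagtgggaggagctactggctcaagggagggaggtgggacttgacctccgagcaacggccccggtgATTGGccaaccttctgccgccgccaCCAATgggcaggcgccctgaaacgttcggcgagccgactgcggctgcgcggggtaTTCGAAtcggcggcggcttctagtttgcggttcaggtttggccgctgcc
NDC80, chr18:2571407-2571606, plus strand: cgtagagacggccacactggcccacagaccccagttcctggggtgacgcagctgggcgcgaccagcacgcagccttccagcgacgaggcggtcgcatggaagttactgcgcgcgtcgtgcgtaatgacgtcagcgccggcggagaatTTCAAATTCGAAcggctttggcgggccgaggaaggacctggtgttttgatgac
SPAG5, chr17:28598976-28599175, minus strand: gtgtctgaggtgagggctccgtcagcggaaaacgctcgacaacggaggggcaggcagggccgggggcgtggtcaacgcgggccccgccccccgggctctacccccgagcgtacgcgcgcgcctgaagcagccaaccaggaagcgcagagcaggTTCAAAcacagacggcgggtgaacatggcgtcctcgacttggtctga
CDCA8, chr1:37692366-37692565, plus strand: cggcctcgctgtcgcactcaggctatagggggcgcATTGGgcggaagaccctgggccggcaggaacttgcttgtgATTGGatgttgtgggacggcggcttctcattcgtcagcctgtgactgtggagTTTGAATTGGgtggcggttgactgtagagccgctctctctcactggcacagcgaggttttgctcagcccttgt
MIS12, chr17:5486224-5486423, plus strand: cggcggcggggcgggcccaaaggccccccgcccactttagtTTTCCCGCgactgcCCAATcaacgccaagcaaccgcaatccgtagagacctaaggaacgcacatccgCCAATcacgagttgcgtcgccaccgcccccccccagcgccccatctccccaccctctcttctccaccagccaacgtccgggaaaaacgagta
MAD1L1, chr7:2232896-2233095, minus strand: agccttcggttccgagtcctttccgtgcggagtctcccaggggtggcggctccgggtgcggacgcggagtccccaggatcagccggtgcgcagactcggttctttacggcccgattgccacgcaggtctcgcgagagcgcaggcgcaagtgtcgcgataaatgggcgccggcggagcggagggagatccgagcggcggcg
In this set the cell cycle homology word begins at −18 in CENPA, −23 in CDCA8, 2 in BUB1 and 4 in SPAG5, counted from the RefSeq start as 1 with no position 0. NDC80 holds TTTGAA on the opposite strand at −3 and, at 4, TTCGAA, which reads the same on both strands. In CDCA8 the word shares its last base with the first base of an opposite CCAAT. MIS12 has 2 RefSeq starts, of which the upstream is shown, with an E2F word and 2 CCAAT words. The MAD1L1 window holds none of the words searched. A match is a description of the letters and says nothing of binding in these cells.

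**Figure D3:**
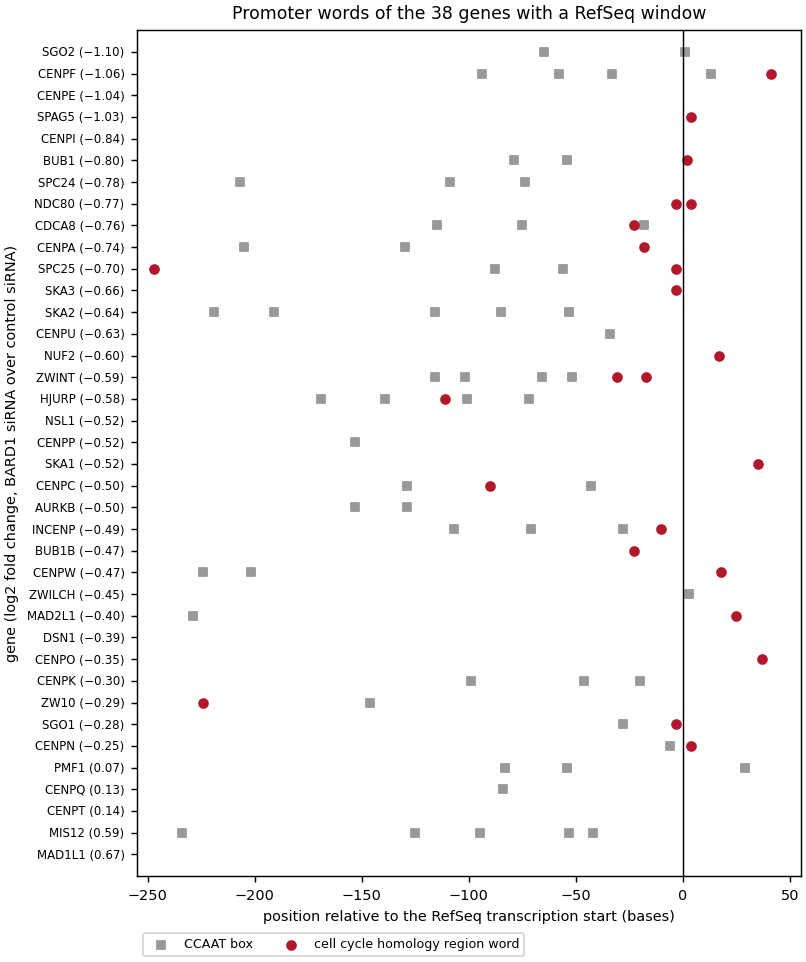
For the 38 genes with a RefSeq window, ordered by log2 fold change with the lowest at the top, points give the position of cell cycle homology words (circles) and CCAAT words (squares) relative to the transcription start, in bases. Most circles lie near the start, with 22 of 44 windows holding at least 1, and SGO2 and CENPE, among the lowest fold changes, have none in the window.

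The genes that mark centromeric chromatin all fell, 3 of 3. Beside this count and those of the other roles below, 20.3% of all tested genes fell and 22.0% rose. CENPA, the centromeric histone whose promoter holds the word at −18, had 30.7, 35.2 and 34.4 CPM in the BARD1 siRNA libraries, against 53.6, 55.3 and 58.98 CPM in the control siRNA libraries. Its groups did not overlap, and CENPA fell 1.67-fold (log2 fold change −0.74, SE 0.08, edgeR adjusted p = 1.07e-10). HJURP, the chaperone that deposits CENP-A, had 67.5, 74.4 and 76.2 CPM in the BARD1 siRNA libraries, against 106, 105 and 114 CPM in the control siRNA libraries, also without overlap. The log2 fold change of HJURP was −0.58 (adjusted p = 9.23e-11). MIS18A, a subunit of the complex that primes centromeres for this deposition, had 27.7, 26.1 and 26.2 CPM in the BARD1 siRNA libraries, against 34.3, 34.5 and 33.6 CPM in the control siRNA libraries. It fell by less, to 78.2% of the control siRNA level, with a log2 fold change of −0.36 and an adjusted p of 0.00143. Of CENPA, 138 exon bases are shared with SLC35F6 on the same strand, a gene with a log2 fold change of −0.28.

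Of the 13 genes of the constitutive centromere network, the inner kinetochore that stays on CENP-A chromatin through the cell cycle, 11 fell and 2 did not pass, with a median log2 fold change of −0.47. CENPI, a subunit of the CENP-H/I/K/M group, had 17.6, 18.5 and 20.9 CPM in the BARD1 siRNA libraries, against 34.6, 34.9 and 32.6 CPM in the control siRNA libraries. It showed the largest fall of the network, 1.79-fold (log2 fold change −0.84, SE 0.10, adjusted p = 7.64e-10), with no overlap of the groups. CENPM, of the same group, had 31.6, 30.7 and 28.1 CPM in the BARD1 siRNA libraries, against 43.1, 48.2 and 51.01 CPM in the control siRNA libraries. The 3 BARD1 siRNA values of CENPM were all lower, at a log2 fold change of −0.66 (adjusted p = 1.63e-08). CENPU, a subunit of the CENP-O/P/Q/U group and a docking site for PLK1, had 45.7, 44.6 and 48.6 CPM in the BARD1 siRNA libraries, against 69.6, 63.02 and 81.9 CPM in the control siRNA libraries. Control siRNA replicate 3 was the highest library, and even the lowest control siRNA value exceeded all BARD1 siRNA values (log2 fold change −0.63, adjusted p = 5.28e-09). Of the exon bases of CENPU, 11.7% are shared with PRIMPOL on the opposite strand, a gene that also fell, with a log2 fold change of −0.45.

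The remaining inner genes that fell had log2 fold changes of −0.50 for CENPC, the scaffold that links CENP-A nucleosomes to the outer kinetochore, −0.50 for CENPH and −0.47 for CENPW. CENPL and CENPO had −0.41 and −0.35. CENPP, CENPK and CENPN, at −0.52, −0.30 and −0.25, were called on narrower grounds, since leaving out a single library ended the call. CENPP had an adjusted p of 0.0128 with all libraries, 0.0760 without BARD1 siRNA replicate 1 and 0.113 without control siRNA replicate 3. CENPK had 0.00467, 0.0561 without BARD1 siRNA replicate 2 and 0.0826 without control siRNA replicate 3. For CENPN, which recognises the CENP-A nucleosome, the values were 0.0139, 0.0996 and 0.0694 in the same order. CENPP, at 6.79 CPM with BARD1 siRNA and 9.72 CPM with control siRNA, was also the lowest of the 47 in CPM, and 37.97% of its exon bases are shared with IPPK on the opposite strand. Of the exon bases of CENPO and CENPN, 26.97% are shared with ADCY3 and 12.8% with CMC2, also on opposite strands.

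CENPQ and CENPT did not pass. CENPQ had 19.9, 19.2 and 19.6 CPM in the BARD1 siRNA libraries, against 16.3, 16.1 and 21.2 CPM in the control siRNA libraries. Control siRNA replicate 3 lay above all BARD1 siRNA values and the other 2 control siRNA libraries below them, so the groups overlapped (log2 fold change 0.13, 95% interval −0.10 to 0.37, adjusted p = 0.384). CENPT, the histone-fold protein that reaches from centromeric DNA to the NDC80 complex, had 77.7, 74.6 and 73.4 CPM in the BARD1 siRNA libraries, against 68.3, 70.3 and 66.7 CPM in the control siRNA libraries. Its BARD1 siRNA libraries were all slightly higher, but the difference missed the threshold (log2 fold change 0.14, SE 0.07, adjusted p = 0.0960). Its histone-fold partner CENPW had 25.9 ± 1.25 CPM with BARD1 siRNA and 35.9 ± 2.63 CPM with control siRNA (SD, n = 3 each) and fell. The 95% interval of the CENPW log2 fold change, −0.66 to −0.28, lay wholly below 0. CENPT shares 10.8% of its exon bases with TSNAXIP1 and 6.86% with THAP11 on the opposite strand, genes with log2 fold changes of −0.21 and −0.27.

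In the KMN network, the microtubule-binding core of the outer kinetochore, 8 of 10 genes fell, MIS12 rose and PMF1 did not pass, and the median log2 fold change was −0.59. KNL1, the scaffold on which the checkpoint kinases and BUB proteins assemble, had 88.1, 86.5 and 95.3 CPM in the BARD1 siRNA libraries, against 171, 147 and 169 CPM in the control siRNA libraries. The groups were well apart, and KNL1 fell 1.80-fold (log2 fold change −0.85, SE 0.06, adjusted p = 6.34e-17). SPC24 had 34.2, 35.7 and 32.9 CPM in the BARD1 siRNA libraries, against 63.5, 58.9 and 54.2 CPM in the control siRNA libraries, and NDC80 had 36.01, 43.3 and 41.2 CPM in the BARD1 siRNA libraries, against 66.3, 72.1 and 67.4 CPM in the control siRNA libraries. These subunits of the NDC80 complex, which holds the microtubule end, showed no overlap and had log2 fold changes of −0.78 and −0.77 (adjusted p = 1.87e-11 and 6.76e-12). The other subunits of that complex, SPC25 and NUF2, had log2 fold changes of −0.70 and −0.60. ZWINT, a partner of KNL1, had a log2 fold change of −0.59 and fell to 82.9 ± 4.08 CPM in BARD1 siRNA cells, against 125 ± 1.41 CPM in control siRNA cells (SD, n = 3 each).

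The 4 subunits of the MIS12 complex, the linker between the inner kinetochore and the NDC80 complex, did not move together. DSN1 and NSL1 fell, with log2 fold changes of −0.39 and −0.52 (adjusted p = 0.000203 and 7.72e-05). MIS12 (ENSG00000167842, GRCh38 chromosome 17, 5486285 to 5490814, plus strand) had 22.4, 29.6 and 28.3 CPM in the BARD1 siRNA libraries, against 17.96, 17.9 and 17.7 CPM in the control siRNA libraries. The 3 control siRNA libraries lay close together and under all BARD1 siRNA libraries, and MIS12 rose (log2 fold change 0.59, SE 0.11, adjusted p = 1.67e-05). Of the exon bases of MIS12, 301 of 3157, or 9.53%, are shared with DERL2 on the opposite strand, a gene of endoplasmic reticulum-associated degradation that averaged 31.0 CPM over the 6 libraries and rose by 0.35 on the log2 scale (adjusted p = 0.00165). The sources used here do not give the strand setting of the counting, and the part of DERL2 reads in the MIS12 values was not tested. PMF1 had 16.3, 16.97 and 17.96 CPM in the BARD1 siRNA libraries, against 16.03, 16.6 and 16.1 CPM in the control siRNA libraries. These ranges overlapped, and the 95% interval of its log2 fold change ran from −0.16 to 0.31 (estimate 0.07, adjusted p = 0.658).

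**Figure D4:**
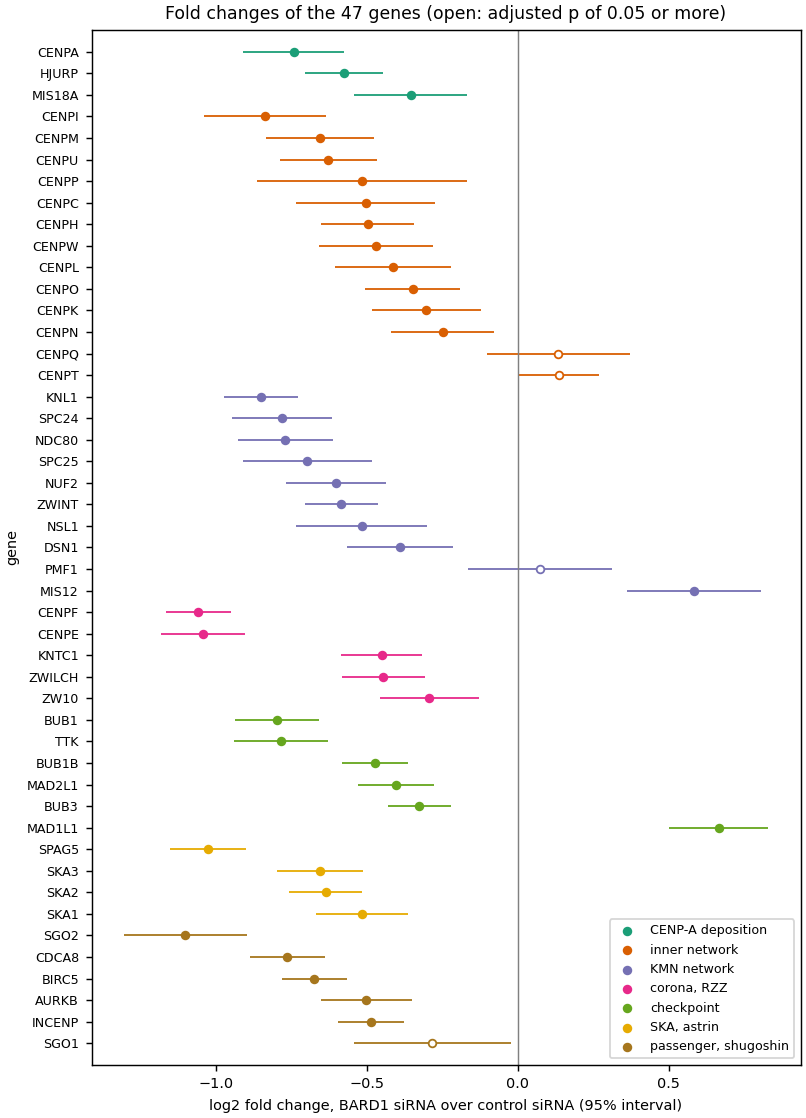
Points give the log2 fold change of each gene, BARD1 siRNA over control siRNA, with 95% intervals from the edgeR fit (3 libraries per group); colours mark the role, and open points have an adjusted p of 0.05 or more. MIS12 and MAD1L1 stand on the right of 0, and SGO2, CENPF, CENPE and SPAG5 are lowest.

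All 5 genes of the corona and of the RZZ complex fell, at a median of −0.45 on the log2 scale. CENPF (ENSG00000117724, chromosome 1, 214603195 to 214664588, plus strand), a large coiled-coil protein of the outermost kinetochore layer, had 170.1, 161 and 181 CPM in the BARD1 siRNA libraries, against 373, 331 and 362 CPM in the control siRNA libraries. It fell 2.08-fold with no overlap (log2 fold change −1.06, SE 0.05, adjusted p = 5.37e-23). CENPE (ENSG00000138778, chromosome 4, 103105806 to 103198409, minus strand), the kinesin that carries chromosomes to the spindle equator, had 45.96, 46.96 and 50.8 CPM in the BARD1 siRNA libraries, against 103, 91.3 and 102 CPM in the control siRNA libraries. Its decrease was 2.06-fold (log2 fold change −1.04, SE 0.07, adjusted p = 2.30e-18), again with separate groups. KNTC1, which encodes the ROD subunit of the RZZ complex, had 78.8, 80.1 and 79.9 CPM in the BARD1 siRNA libraries, against 107, 97.8 and 122 CPM in the control siRNA libraries. Its BARD1 siRNA libraries were nearly equal and the lowest control siRNA library was well above them (log2 fold change −0.45, adjusted p = 1.24e-07). ZWILCH and ZW10, the other subunits of this complex that recruits dynein and MAD1, had log2 fold changes of −0.45 and −0.29. The 95% intervals of KNTC1 (−0.59 to −0.32), ZWILCH (−0.58 to −0.31) and ZW10 (−0.46 to −0.13) did not overlap those of CENPE (−1.18 to −0.90) and CENPF (−1.17 to −0.95).

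Among the 6 spindle checkpoint genes, 5 fell and MAD1L1 rose. BUB1, the kinase that marks centromeric chromatin and recruits the other BUB proteins, had 51.1, 58.8 and 54.7 CPM in the BARD1 siRNA libraries, against 103, 90.7 and 92.5 CPM in the control siRNA libraries. Its groups did not overlap, at a log2 fold change of −0.80 (SE 0.07, adjusted p = 3.89e-14). TTK, also called MPS1, the kinase that starts checkpoint signalling, had 46.8, 46.7 and 46.5 CPM in the BARD1 siRNA libraries, against 86.0, 68.9 and 86.3 CPM in the control siRNA libraries. The BARD1 siRNA libraries of TTK were nearly equal while control siRNA replicate 2 was lower than the other control siRNA libraries, and TTK fell 1.72-fold (adjusted p = 2.15e-12). BUB1B, MAD2L1 and BUB3 belong to the mitotic checkpoint complex that inhibits the anaphase-promoting complex. BUB1B, which encodes BUBR1, averaged 135 ± 5.02 CPM in BARD1 siRNA and 188 ± 4.17 CPM in control siRNA cells (SD, n = 3 each; log2 fold change −0.47). MAD2L1, which encodes MAD2, and BUB3 had log2 fold changes of −0.40 and −0.33 (adjusted p = 4.24e-07 and 5.69e-07). The 95% intervals of BUB1B (−0.58 to −0.36), MAD2L1 (−0.53 to −0.28) and BUB3 (−0.43 to −0.22) did not overlap those of BUB1 (−0.94 to −0.66) and TTK (−0.94 to −0.63). CDC20, the other protein of that complex and not among the 47, had a log2 fold change of −0.63 (interval −0.73 to −0.53). That interval overlapped those of BUB1, TTK and BUB1B and narrowly that of MAD2L1, but not that of BUB3.

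MAD1L1 (ENSG00000002822, chromosome 7, 1815793 to 2233243, minus strand) encodes MAD1, which holds MAD2 at unattached kinetochores and converts it to its active form. It had 60.1, 60.9 and 52.9 CPM in the BARD1 siRNA libraries, against 38.3, 36.2 and 35.1 CPM in the control siRNA libraries. All BARD1 siRNA libraries exceeded all control siRNA libraries, and MAD1L1 rose 1.59-fold (log2 fold change 0.67, SE 0.08, adjusted p = 1.30e-09). Its 95% interval, 0.50 to 0.83, and that of MAD2L1, −0.53 to −0.28, lay on opposite sides of 0. Per kilobase of gene length, MAD1L1 reached 8.02 ± 0.606 and MAD2L1 15.3 ± 0.353 normalised CPM in BARD1 siRNA cells, against 5.05 ± 0.228 for MAD1L1 and 20.2 ± 1.77 for MAD2L1 in control siRNA cells (SD, n = 3 each). The level of MAD1L1 per length thus stayed below that of MAD2L1 in both conditions.

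The SKA complex, which helps the NDC80 complex follow shortening microtubules, and astrin fell in 4 of 4 cases, with a median log2 fold change of −0.65. SPAG5 (ENSG00000076382, chromosome 17, 28577565 to 28599279, minus strand) encodes astrin, which marks kinetochores with stable attachment, and had 67.7, 65.2 and 73.5 CPM in the BARD1 siRNA libraries, against 146, 137 and 138 CPM in the control siRNA libraries. It fell 2.04-fold, with every BARD1 siRNA library far below the control siRNA libraries (log2 fold change −1.03, SE 0.06, adjusted p = 4.05e-20). SKA3 had 53.95, 54.2 and 55.01 CPM in the BARD1 siRNA libraries, against 88.4, 76.3 and 92.3 CPM in the control siRNA libraries, and SKA2 had 89.4, 86.9 and 91.6 CPM in the BARD1 siRNA libraries, against 145, 130.3 and 141 CPM in the control siRNA libraries. Neither overlapped between groups, and their log2 fold changes were −0.66 and −0.64 (adjusted p = 4.22e-11 and 4.02e-13). SKA1 had a log2 fold change of −0.52 (95% interval −0.67 to −0.36), an interval that overlaps those of SKA2 (−0.76 to −0.52) and SKA3 (−0.80 to −0.51).

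The chromosomal passenger complex, which carries Aurora B to sites of faulty attachment, fell in all 4 subunits. CDCA8, which encodes borealin, had 68.4, 76.4 and 78.9 CPM in the BARD1 siRNA libraries, against 126, 129.96 and 124 CPM in the control siRNA libraries. Its fall was 1.70-fold with no overlap (log2 fold change −0.76, SE 0.06, adjusted p = 4.10e-15). BIRC5, which encodes survivin, had 147, 135 and 142 CPM in the BARD1 siRNA libraries, against 223, 228 and 226 CPM in the control siRNA libraries, also with separate groups (adjusted p = 1.17e-15). The kinase gene AURKB and its activator INCENP had log2 fold changes of −0.50 and −0.49 (adjusted p = 1.66e-07 and 1.08e-10).

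The shugoshins, which protect centromeric cohesin until anaphase, had unequal fold changes. SGO2 (ENSG00000163535, chromosome 2, 200510008 to 200583782, plus strand) had 26.6, 28.6 and 32.6 CPM in the BARD1 siRNA libraries, against 60.99, 53.3 and 74.3 CPM in the control siRNA libraries. Its control siRNA libraries varied more than most, yet the lowest of them exceeded every BARD1 siRNA library, and SGO2 showed the lowest log2 fold change of the 47 genes, −1.10 (SE 0.10, 2.15-fold lower, adjusted p = 6.86e-11). SGO1 had 12.4, 11.8 and 13.7 CPM in the BARD1 siRNA libraries, against 15.01, 15.2 and 15.9 CPM in the control siRNA libraries. The BARD1 siRNA libraries of SGO1 were all below the control siRNA libraries, but the difference did not pass (log2 fold change −0.28, 95% interval −0.54 to −0.02, adjusted p = 0.0730). With upper-quartile factors or library size alone, SGO1 passed as lower, with adjusted p of 0.0239 and 0.0267. The 95% interval of SGO2, −1.31 to −0.90, did not overlap that of SGO1.

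Levels per kilobase of gene length show how subunits of a complex stood to each other. They divide normalised CPM by the deposited length, which joins the exons of all transcripts of a gene and so understates genes with long rarely used exons. The 4 subunits of the NDC80 complex were close to each other in both conditions, from 9.90 for SPC25 to 12.1 for SPC24 in BARD1 siRNA cells and from 15.5 for NUF2 to 20.7 for SPC24 in control siRNA cells. In the MIS12 complex, DSN1 was highest, with 12.8 ± 1.17 in BARD1 siRNA and 16.8 ± 1.01 in control siRNA cells (SD, n = 3 each). The lowest of this complex was NSL1 with BARD1 siRNA, at 4.96 ± 0.639, and MIS12 with control siRNA, at 5.65 ± 0.0481. MIS12 stood at 8.47 ± 1.22 with BARD1 siRNA, against 6.78 ± 0.322 for PMF1 in the same libraries. In the passenger complex, BIRC5 was highest and AURKB lowest in both conditions, at 37.1 and 22.9 with BARD1 siRNA and 59.2 and 32.5 with control siRNA. Across the 47 genes the control siRNA mean ran from 0.992 for CENPP to 59.2 for BIRC5. Genes with higher control siRNA levels tended to have lower fold changes, with a Spearman correlation of −0.33 over 47 genes, given as a description because both measures use the same control siRNA libraries.

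**Figure D5:**
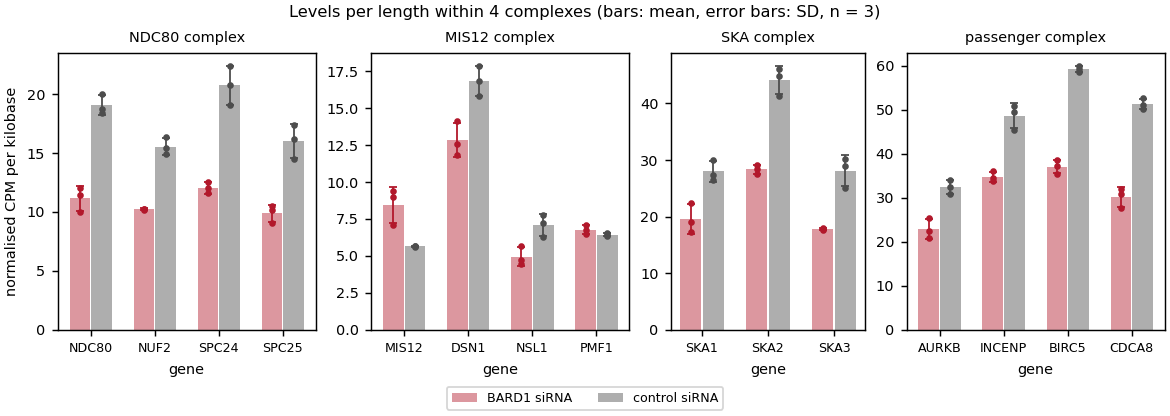
Bars give the mean normalised CPM per kilobase of gene length in BARD1 siRNA (left, red) and control siRNA (right, grey) libraries, with SD (n = 3 each) and each library as a point, for 4 complexes. The BARD1 siRNA bar is lower for every subunit but MIS12 and PMF1, and the 4 NDC80 complex subunits are close to each other within each condition.

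Other genes of the same machinery were read from lists by role. Of 25 further kinetochore and checkpoint genes, 14 fell and 3 rose, against 20.3% and 22.0% of all tested genes (median log2 fold change −0.42). The lowest were ERCC6L, a translocase of ultrafine anaphase bridges, at −0.96, OIP5, the partner of MIS18A, at −0.95, the kinesin KIF18A at −0.88 and the mitotic kinase PLK1 at −0.75. The genes that rose were the dynein regulator NDEL1 at 0.67, BOD1, a regulator of kinetochore phosphatase, at 0.39 and the microtubule plus-end protein MAPRE1 at 0.13. The call of MAPRE1 ended with upper-quartile factors (adjusted p = 0.275), with library size alone (0.235), with no filter on low counts (0.0573) and without any 1 of 5 libraries, of which the highest adjusted p was 0.184, without BARD1 siRNA replicate 1.

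Among 21 genes of the anaphase-promoting complex, its conjugating enzymes and separase, the machinery that the checkpoint restrains, 13 fell and 0 rose (median −0.25). Of all tested genes, 20.3% fell and 22.0% rose. A rise at an unadjusted p under 0.05 was seen for 0 of the 21, and DESeq2 called 0 higher. FBXO5, which encodes the inhibitor EMI1, was lowest at −0.96, followed by securin (PTTG1) at −0.61, separase (ESPL1) at −0.50 and the scaffold subunit ANAPC4 at −0.47. Without control siRNA replicate 3, 1 of the 21, UBE2D1, was higher at an adjusted p of 0.0488.

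Cohesin, the ring that shugoshins guard, and its regulators had 7 of 13 lower and 2 higher (median −0.17). The shares among all tested genes were 20.3% lower and 22.0% higher. ESCO2, the acetyltransferase of S phase cohesion, was lowest at −0.90, and RAD21 and CDCA5, which encodes sororin, had −0.27 and −0.26. WAPL, which releases cohesin, rose by 0.26 and the subunit STAG2 by 0.19. STAG2 lost its call with upper-quartile factors (adjusted p = 0.0792) and with library size alone (0.0674).

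Of 24 genes that control transcription of mitotic genes, 12 fell and 4 rose (median −0.18), against 20.3% and 22.0% of all tested genes. FOXM1 and MYBL2, activators of late cell cycle promoters, fell with log2 fold changes of −0.37 and −0.25, less than the median of the kinetochore genes. Of the MuvB core subunits, LIN9, LIN52, RBBP4 and LIN54 fell, at −0.75, −0.60, −0.53 and −0.23. LIN37 had a log2 fold change of 0.70 at 1.42 CPM with BARD1 siRNA and 0.872 CPM with control siRNA and was not called (adjusted p = 0.219), although its 3 BARD1 siRNA libraries lay above the control siRNA libraries. LIN54 lost its call without BARD1 siRNA replicates 2 or 3 or control siRNA replicate 1 (adjusted p of 0.0768, 0.136 and 0.137). The atypical repressors of the E2F family went apart, with E2F8 at −1.52 and E2F7 at 1.41. E2F2 was at −0.996, whereas E2F3 and E2F4 rose by 0.26 and 0.27. CDKN1A, which encodes the cyclin-dependent kinase inhibitor p21, had a log2 fold change of 3.25 and rose to 121 CPM in BARD1 siRNA cells, against 12.7 CPM in control siRNA cells. The part of these regulators in the fall of the kinetochore genes was not tested.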

How the data were processed

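For each gene, the authors deposited whole read counts without normalisation, in 6 libraries from poly(A)-captured RNA. HISAT2 and CASAVA with GRCh38 (hg38) are named per the submitters' processing notes. The sources used here give neither tool versions nor the counting program, its annotation or its strand setting. The gene length column was used as deposited, to express levels per kilobase.

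Tests ran in R 4.3.3 with the quasi-likelihood method of edgeR 4.0.16 (robust, TMM factors, group as the only term, two-sided). The filterByExpr function (minimum count 10, minimum total 15) kept 15271 of 58735 genes. P-values were adjusted by Benjamini-Hochberg across these genes, with a threshold of 0.05. The SE was derived from the fold change and its F statistic, and 95% intervals use the t quantile of the same fit. Totals of 16621108 to 17743404 counts set the precision, and the smallest total of a member over the 6 libraries was 857 counts. The code of the fit, and of its DESeq2 1.42.0 and limma 3.58.1 (voom) alternatives, was tested on simulated data. The simulation changed far fewer genes than were called here, evenly in both directions, with the same spread for every gene. It therefore cannot show the error rate or the scaling in these data.

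All 47 genes match GENCODE release 29 in start and end. Of these, 13 share exon bases with another tested gene, 5 of them over 10% of their exon bases. Promoter sequences are from RefSeq (GRCh38.p14). The members and lists were chosen with earlier results of these data known. Per-library values are given for the 3 called genes of each role whose log2 fold change was farthest from 0, for those that rose and for those that did not pass. For other lists, the text names the 4 largest changes, all that rose, and FOXM1, MYBL2 and CDKN1A. A further gene under this rule is not reported here. LIN52, LIN54, LIN37, RBBP4, CDC20, UBE2D1, KRT8 and CDH1 were added after their values were seen. LIN9, EPCAM and ERBB2 also lie outside the rule, as do the named markers that could not be tested.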

Additional observations from a re-analysis of the deposited data

How the results depend on the processing

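No member changed direction under the 16 alternatives. These were RLE, upper-quartile or no composition factors, DESeq2, limma-voom, no robust estimation, 2 other filters, protein-coding genes only, the replicate block and leaving out each library. The number of members that fell was 41 in the main test, 42 with upper-quartile factors or library size alone, and 38 to 41 without 1 library, the lowest without control siRNA replicate 3. Of all tested genes, 20.3% fell in the main test, against 26% after upper-quartile scaling and 25.6% when only library size was used. The count of 42 members thus came with more lower calls in general. Leaving out 1 library gave 16.9% to 19.5% of all tested genes lower, and 18.3% when control siRNA replicate 3 was dropped. MIS12 and MAD1L1 rose in each of the 16 alternatives. Upper-quartile factors shifted all tested genes by −0.07 and library size alone by −0.06 on the log2 scale. Of all called genes, the share that rose was 51.9%, and 41.5% and 42.2% with these scalings. The replicate block changed no call among the members, with 41 lower and 2 higher. Deviations of same-numbered libraries correlated at −0.00, −0.01 and −0.02, and those of differently numbered libraries at −0.02 to 0.02. No pairing by number showed in these values, which cannot settle whether the cultures were handled in pairs. With promoter windows of 150 bases before the start, 21 of 44 windows held a cell cycle homology word, or 47.7%, against 10.2% of all windows. CCAAT words were then in 56.8% of the member windows and 26.5% of all windows, and E2F words in 4.55% and 1.57%. For a member with few counts, such as CENPP or SGO1, depth limits how small a change could be called.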
